A study of Mus musculus with 16 samples.

Results

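Genes of ferroptosis and lipid peroxide defence, 10 in number, were followed through RNA-seq of whole mouse retina. They were chosen by name (Slc7a11, Gclc, Gpx4, Aifm2, Nqo1, Acsl4, Fth1, Ftl1, Tfrc and Hmox1) and matched by gene identifier, and all 10 were found among 54532 genes in the table of uninjected retinas and among 48440 genes in the table of injected retinas. Among uninjected C57BL6/J retinas, 3 were from 12-month wildtype mice, 3 from 12-month Elovl2 mutants and 4 from 18-month wildtype mice. Elovl2 encodes an elongase of long polyunsaturated fatty acids, and the mutant allele is a substitution that the genotype labels spell C34W and the design text spells C234W. The RNA level of Elovl2 does not check such a label. The injected retinas were wildtype at 18 months, taken 5 days after 0.36 nmol of the fatty acid 24:5 was injected into the vitreous of 1 eye (n = 3) and vehicle into the fellow eye (n = 3). Which retinas share an animal is not given, nor whether the other libraries come from separate animals, so all p-values rest on the spread among libraries, part of which may be technical.

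Ferroptosis is an iron-dependent form of cell death driven by peroxidation of polyunsaturated phospholipids, with which photoreceptor outer segments are densely packed. Cells hold it back by importing cystine for glutathione synthesis, by reducing lipid peroxides with the selenoenzyme GPX4, and by recycling quinones that trap lipid radicals. Iron stored in ferritin is kept from feeding the reaction. ACSL4, in contrast, activates long polyunsaturated fatty acids for their loading into phospholipids and so helps to supply its substrate.

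Uninjected libraries held 12810558 to 30519417 reads and injected libraries 22066668 to 25609242 counts. All 18-month wildtype libraries (12810558 to 15909796 reads) were shallower than all 12-month wildtype libraries (18854246 to 27082456 reads). Depth and age cannot be told apart between these 2 groups. Mutant libraries held 14988833 to 30519417 reads. Rod markers, among them the transducin subunit gene Gnat1, were detected in every library. In uninjected retinas the nuclear RNA Malat1 was at 229 to 377 FPKM (fragments scaled to gene length and sequencing depth) in 5 libraries and at 85.7 to 149.97 FPKM in the other 5. The high libraries were replicates 2 and 3 of 18-month wildtype, replicate 1 of the mutants and replicates 1 and 2 of 12-month wildtype. Reactive gliosis markers summed to 105 FPKM in 12-month wildtype replicate 1 and to 44.5 to 57.5 FPKM in the other uninjected libraries. That replicate was also the highest uninjected library for Slc7a11 and the highest 12-month wildtype library for Hmox1. The part of gliosis in those values was not tested. In injected retinas the summed lens markers were at 131 to 1830 CPM (counts scaled to depth) with vehicle and 57.1 to 675 CPM with 24:5. In uninjected retinas they were at 1.36 to 2.66 FPKM, and 6 to 10 of the 14 markers were above 0. CPM is not scaled to gene length, so the size of this contrast cannot be read from the 2 units. All libraries are labelled as poly(A) RNA, yet Rn7sk, Rpph1 and Rmrp, RNAs that carry no poly(A) tail, together took 8.54% to 13.4% of the counts of each injected library (8.54% to 12.9% with vehicle, 9.21% to 13.4% with 24:5) and at most 0.00808% of the reads of each uninjected library. In whole-retina libraries, fewer cells of a type and less RNA per cell cannot be told apart.

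No gene of the 10 passed an adjusted p of 0.05 in any of the 4 comparisons. For age, 0 of 9 tested genes passed in limma, as did 0% of all genes tested, and 1 of the 9, Tfrc, had an unadjusted p under 0.05, against 3.65% of all genes. For genotype 0 of 9 passed and 0 had an unadjusted p under 0.05, against 2.19% of all genes. Between wildtype at 18 months and mutants at 12 months 0 of 9 passed, and Tfrc and Nqo1 (2 of 9) had an unadjusted p under 0.05, against 2.14%. These comparisons share libraries and are not independent of each other. After 24:5, 0 of 10 passed in edgeR, against 0.0115% of all genes. Ftl1, Slc7a11 and Aifm2 (3 of 10) were lower with an unadjusted p under 0.05, against 5.16% of all genes in that direction. Other count tests, DESeq2 among them, and edgeR on reads recovered from the FPKM values also called 0 of the 10 genes. Among all alternative fits, calls came only with library quality weights in limma, for Tfrc and Acsl4 for age (2 of 9, against 9.04% of all genes in that fit) and Acsl4 for genotype (1 of 9, against 18.8%).

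**Figure D1:**
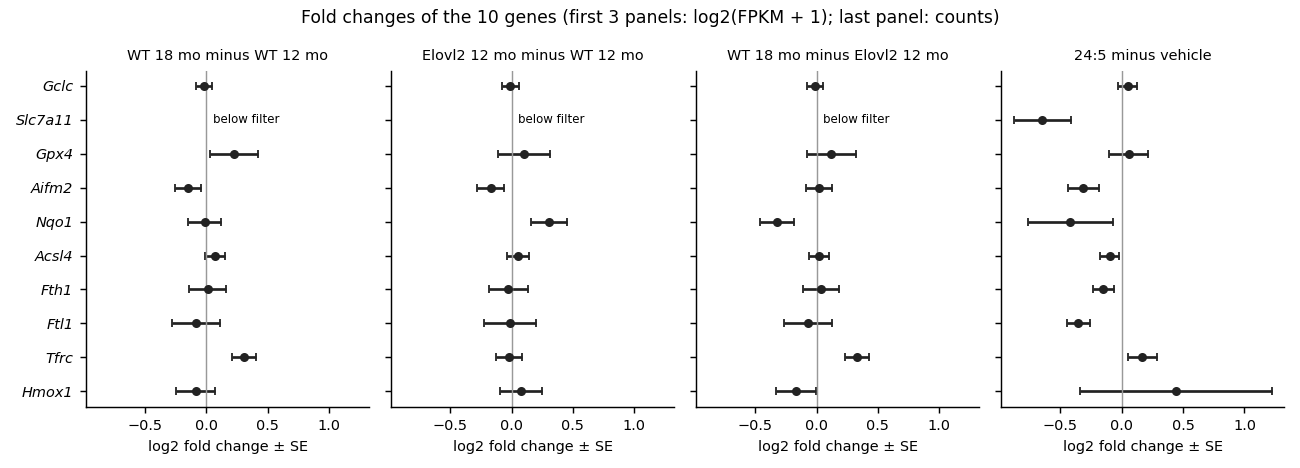
Log2 fold changes of the 10 genes (points) with their standard errors (bars) in the 4 comparisons, on the log2(FPKM + 1) scale in the first 3 panels and from counts in the last. Tfrc lies to the right of 0 in both comparisons of 18-month wildtype retinas, and Slc7a11, Ftl1 and Aifm2 lie to the left of 0 after 24:5.

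Across the uninjected libraries, levels per gene length ran over a wide range. Fth1 was highest, at 478 to 687 FPKM, followed by Gpx4 at 242 to 456 FPKM. The place of Fth1 rests on its deposited length of 866 bases. With the 3469 exon bases of GENCODE M21 its values would be 119 to 172, below Gpx4 and above Ftl1. Ftl1 (38.4 to 71.2 FPKM) and Tfrc (32.5 to 48.7 FPKM) came next, and their ranges overlapped. Gclc, Acsl4 and then Aifm2 followed without overlap between neighbours. Aifm2, Hmox1 and Nqo1 overlapped in turn, at 1.44 to 3.598 FPKM among them, and Slc7a11 was lowest. In injected retinas, counted per kilobase of the same deposited lengths, Fth1, Gpx4 and Ftl1 overlapped at the top (146 to 265 CPM per kilobase), Tfrc followed at 33.0 to 46.4 (Fth1 would be at 52.4 to 66.1 with the longer model), and the other 6 genes had ranges that overlapped their neighbours.

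**Figure D2:**
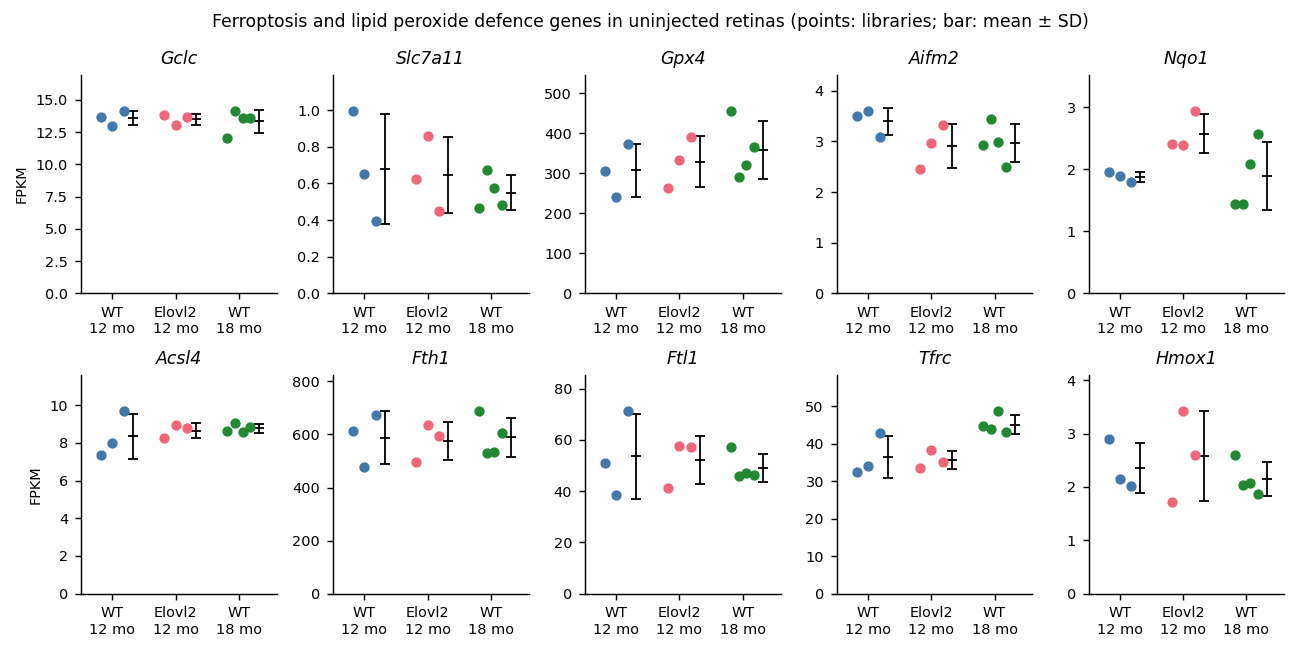
Level of each gene in FPKM (vertical axes, from 0) in wildtype 12-month, Elovl2 mutant 12-month and wildtype 18-month retinas, with 1 point per library and bars for the mean ± SD. The 4 points of Tfrc at 18 months, 43.2 to 48.7 FPKM, lie above all other libraries, and the 3 mutant points of Nqo1 lie above the 12-month wildtype points.

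Slc7a11 (ENSMUSG00000027737, chromosome 3, 49892526 to 50443614, mm10, minus strand) encodes the cystine-importing subunit of the cystine/glutamate antiporter. It was at 0.995, 0.649 and 0.397 FPKM in wildtype retinas at 12 months. Mutants were at 0.625, 0.862 and 0.451 FPKM, and 18-month retinas at 0.468, 0.675, 0.573 and 0.484 FPKM. The 3 groups overlapped, and with a mean under 1 FPKM the gene fell below the minimum for testing. The level of this long transcript still rested on 96 to 412 reads per library. Alternative fits that kept the gene, limma without the filter and edgeR and DESeq2 on recovered reads, gave log2 fold changes of -0.31 to -0.10 for age and -0.06 to -0.02 for genotype, and in none did it pass (smallest adjusted p = 0.978).

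After injection Slc7a11 was at 61.1, 36.9 and 37.3 CPM with vehicle and at 24.3, 28.0 and 34.2 CPM with 24:5. All 3 libraries with 24:5 were below all 3 with vehicle, and vehicle replicate 1 stood above the other 5. Means were 45.1 ± 13.9 and 28.8 ± 4.99 CPM (SD, n = 3 each), a log2 fold change of -0.65 (SE 0.231, edgeR adjusted p = 0.647). Without vehicle replicate 1 the log2 fold change was -0.37 (SE 0.148). Groups that do not overlap in the lower direction made up 6.77% of all genes in this comparison, and 3 of the 10 genes (Slc7a11, Ftl1 and Aifm2) were among them.

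Slc7a11 is a textbook target of ATF4, the transcription factor of the amino acid response, and the RefSeq promoter windows (GRCm38.p6, 250 bases before to 50 after each start) were searched for its core site TGATGCAAN on both strands. The stretch below is shown because it holds 2 matches, in capitals, 66 to 58 and 48 to 40 bases before the start. It is printed 5′ to 3′ on the gene's strand, and the second match reads on the opposite strand.
Slc7a11, chr3:50443641-50443691 (minus strand): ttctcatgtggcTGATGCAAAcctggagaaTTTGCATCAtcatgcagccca
Of 32851 windows, 0.889% held a match and 2 windows held at least 2. Slc7a11 was the 1 gene with a match among the 8 that had windows (13 windows in all). Gclc and Hmox1 had no entry. Atf4 itself was at 197 ± 18.0 CPM in vehicle retinas and 232 ± 36.6 CPM in 24:5 retinas (SD, n = 3 each), a log2 fold change of 0.24 (SE 0.121, edgeR adjusted p = 0.850).

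Gclc (ENSMUSG00000032350, chromosome 9, 77754535 to 77794485), the catalytic subunit of the rate-limiting enzyme of glutathione synthesis, was the steadiest of the 10. It was at 13.6, 13.0 and 14.1 FPKM in 12-month wildtype, at 13.8, 13.0 and 13.7 FPKM in mutants, and at 12.1, 14.1, 13.6 and 13.6 FPKM in 18-month wildtype retinas. Its highest uninjected library exceeded its lowest 1.17-fold. Log2 fold changes were -0.02 (SE 0.0651) for age and -0.01 (SE 0.0696) for genotype. With vehicle it was at 42.0, 44.9 and 46.5 CPM and with 24:5 at 43.5, 48.6 and 45.9 CPM, a log2 fold change of 0.05 (SE 0.0768, edgeR adjusted p = 0.997).

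Gpx4 (ENSMUSG00000075706, chromosome 10, 80047166 to 80056439) encodes the peroxidase that reduces phospholipid hydroperoxides. It was at 306, 242 and 374 FPKM in 12-month wildtype, 264, 333 and 390 FPKM in mutants, and 456, 292, 321 and 366 FPKM in 18-month wildtype retinas. Within each group the spread was wide, and the groups overlapped. Means were 307 ± 65.9 and 329 ± 63.1 FPKM (SD, n = 3 each) at 12 months in wildtype and mutant, and 359 ± 71.6 FPKM (SD, n = 4) at 18 months. The log2 fold change was 0.22 (SE 0.198) for age and 0.10 (SE 0.212) for genotype (limma adjusted p = 0.9999 and 0.9998).

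Gpx4 did not overlap across the Malat1 split, which crosses the groups. It was at 242 to 321 FPKM in the 5 libraries with high Malat1 and at 333 to 456 FPKM in the other 5. Between 12 and 18 months in wildtype it went from 242 and 306 to 292 and 321 FPKM in the first set. The second set held a single 12-month wildtype library, at 374 FPKM, against 366 and 456 FPKM at 18 months. Fth1 and Ftl1 also leaned higher in the libraries with low Malat1, with overlap. The split was drawn from these data, and the share of all genes that do not overlap across it was not counted. The part of Malat1 in the Gpx4 spread was not tested. A near-identical copy, Gpx4-ps2, took 11.6% to 13.4% of the reads of the pair in each uninjected library, so the level of Gpx4 is uncertain by how reads were split. With both summed, the age difference had the same direction and did not pass. In injected retinas Gpx4 was at 431, 313 and 290 CPM with vehicle and 403, 327 and 344 CPM with 24:5. Replicate 1 was highest in both groups, and the log2 fold change was 0.06 (SE 0.159, edgeR adjusted p = 0.997).

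Aifm2 (ENSMUSG00000020085, chromosome 10, 61715263 to 61739260) encodes FSP1, which reduces coenzyme Q at membranes independently of glutathione. It was at 3.50, 3.598 and 3.09 FPKM in 12-month wildtype, 2.46, 2.97 and 3.32 FPKM in mutants, and 2.93, 3.44, 2.995 and 2.502 FPKM in 18-month wildtype retinas. These groups overlapped, and the log2 fold changes of -0.15 (SE 0.104) for age and -0.17 (SE 0.111) for genotype did not pass. With vehicle it was at 11.6, 11.04 and 11.1 CPM, and with 24:5 at 9.27, 9.99 and 7.90 CPM.

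All 3 libraries with 24:5 lay below the narrow vehicle group for Aifm2. Means were 11.2 ± 0.284 and 9.05 ± 1.06 CPM (SD, n = 3 each), a log2 fold change of -0.31 (SE 0.130, edgeR adjusted p = 0.729). Aifm2 shares 233 exon bases with H2afy2 on the opposite strand, and the strand setting of the counting is not given in the sources used here, so reads of the pair may not be separated.

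Nqo1 (ENSMUSG00000003849, chromosome 8, 107388225 to 107403206) encodes a quinone reductase and is a standard target of the stress response factor NRF2. It was at 1.95, 1.90 and 1.79 FPKM in 12-month wildtype and at 2.40, 2.38 and 2.94 FPKM in mutants. In 18-month wildtype retinas it was at 1.44, 1.44, 2.09 and 2.57 FPKM. Mutants were above all 12-month wildtype libraries, whereas the 18-month libraries spread across both. The mutant mean was 2.57 ± 0.315 and the wildtype mean 1.88 ± 0.0799 FPKM (SD, n = 3 each), a log2 fold change of 0.31 on the log2(FPKM + 1) scale (SE 0.147, limma adjusted p = 0.9998). On recovered reads, without a pseudocount of 1 FPKM, edgeR gave 0.45 (SE 0.236). Groups that do not overlap in the higher direction made up 3.05% of all genes for genotype, and Nqo1 was the 1 of the 9.

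Against the same mutants, 18-month wildtype retinas were lower in Nqo1 (log2 -0.32, SE 0.138, limma adjusted p = 0.99999), with overlap between groups. The gene rested on 30 to 120 reads per uninjected library. After injection it was at 5.54, 5.94 and 3.59 CPM with vehicle and 5.37, 2.16 and 3.73 CPM with 24:5. The groups overlapped, and the log2 fold change of -0.42 (SE 0.345) ranged from -0.77 to -0.15 when single libraries were left out, and was -0.87 with library quality weights and -0.02 with the lens level as a covariate. The core antioxidant response element TGACNNNGC, through which NRF2 acts, was found on either strand in 12.4% of the 32851 promoter windows and in 0 of the 13 windows of the 8 genes, which describes these windows only.

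Acsl4 (ENSMUSG00000031278, chromosome X, 142317993 to 142390535), the acyl-CoA ligase that favours arachidonic and adrenic acid, was at 7.36, 7.99 and 9.68 FPKM in 12-month wildtype retinas. Mutants were at 8.24, 8.97 and 8.77 FPKM and 18-month wildtype retinas at 8.62, 9.04, 8.56 and 8.85 FPKM. The 12-month wildtype group held both the lowest and the highest library. Log2 fold changes were 0.07 (SE 0.0822) for age and 0.05 (SE 0.0878) for genotype, and neither passed. With library quality weights, an alternative fit that downweights scattered libraries, Acsl4 passed for both age (log2 0.21, limma adjusted p = 0.0397) and genotype (log2 0.22, limma adjusted p = 0.0194), in fits that called 9.04% and 18.8% of all genes. After injection it was at 62.7, 67.3 and 68.9 CPM with vehicle and 57.9, 61.8 and 65.9 CPM with 24:5, which overlapped (log2 -0.10, SE 0.0761, edgeR adjusted p = 0.973).

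**Figure D3:**
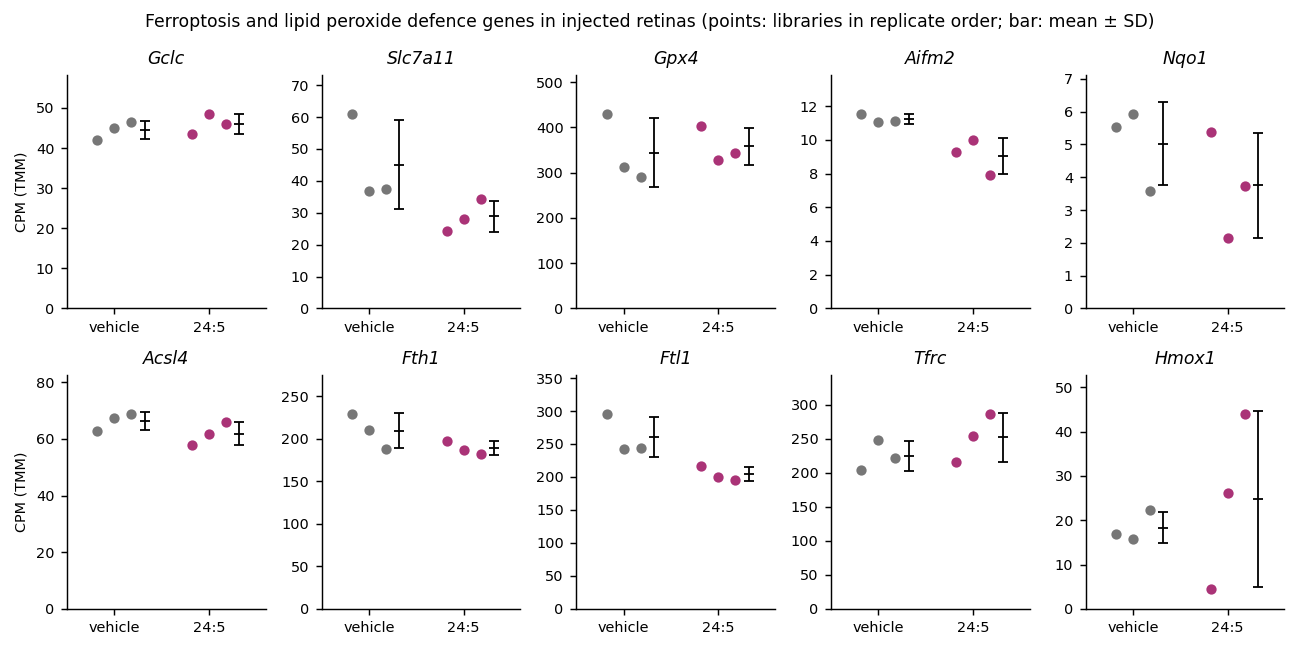
Level of each gene in CPM after TMM normalisation (vertical axes, from 0) in retinas injected with vehicle or 24:5, with 1 point per library and bars for the mean ± SD. The points of Slc7a11, Aifm2 and Ftl1 do not overlap between groups, and the 24:5 points of Hmox1 run from 4.41 to 44.0 CPM.

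Fth1, Ftl1 and Tfrc share a known control through their mRNAs. Its ferritin part acts on translation, which RNA levels do not show. Iron regulatory proteins bind hairpins called iron-responsive elements when cellular iron is low, which blocks translation of the ferritin mRNAs from their 5′ UTRs and protects the Tfrc mRNA from decay through its 3′ UTR. A search of GENCODE M21 protein-coding transcripts (mm10) for an unpaired C, a stem of 5 bases, the loop CAGTGN and the matching 5 bases, with G-T pairs allowed, gave the 6 sites below in 3 of the 10 genes. They are shown because they set the ferritins apart from Tfrc. Each is printed 5′ to 3′ on the gene's strand with the loop in capitals.
Fth1 5′ UTR, chr19:9982732-9982760 (plus strand): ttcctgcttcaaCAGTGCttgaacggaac
Ftl1 5′ UTR, chr7:45459779-45459807 (minus strand): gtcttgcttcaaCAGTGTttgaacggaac
Tfrc 3′ UTR, chr16:32631219-32631247 (plus strand): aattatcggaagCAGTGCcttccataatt
Tfrc 3′ UTR, chr16:32631598-32631626 (plus strand): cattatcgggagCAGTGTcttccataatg
Tfrc 3′ UTR, chr16:32631663-32631691 (plus strand): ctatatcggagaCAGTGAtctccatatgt
Tfrc 3′ UTR, chr16:32631710-32631738 (plus strand): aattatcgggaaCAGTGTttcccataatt
Of 21901 protein-coding genes, 294 (1.34%) held a match in some transcript. Each ferritin gene had 1 site, before the coding sequence, and Tfrc had 4, after it.

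Fth1 (ENSMUSG00000024661, chromosome 19, 9982703 to 9985092), the ferritin heavy chain with ferroxidase activity, was at 614, 478 and 673 FPKM in 12-month wildtype and 495, 635 and 596 FPKM in mutants. At 18 months it was at 687, 532, 534 and 605 FPKM. The group means, 589 ± 99.9 (SD, n = 3), 575 ± 72.5 (SD, n = 3) and 590 ± 73.6 FPKM (SD, n = 4), differed by less than their spread. Log2 fold changes were 0.01 (SE 0.149) for age and -0.03 (SE 0.159) for genotype. With vehicle Fth1 was at 229, 209.99 and 188 CPM and with 24:5 at 198, 186 and 182 CPM, which overlapped (log2 -0.15, SE 0.0860, edgeR adjusted p = 0.900).

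Ftl1 (ENSMUSG00000050708, chromosome 7, 45457944 to 45459884) encodes the ferritin light chain, which promotes the iron core. It was at 51.1, 38.4 and 71.2 FPKM in 12-month wildtype, 41.2, 57.8 and 57.2 FPKM in mutants, and 57.4, 46.1, 46.9 and 46.4 FPKM in 18-month wildtype retinas. The 12-month wildtype libraries bracketed the other 7, and neither age (log2 -0.08, SE 0.196) nor genotype (log2 -0.01, SE 0.210) passed.

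After injection Ftl1 was at 296, 242 and 244 CPM with vehicle and at 216, 199.75 and 196 CPM with 24:5. All 3 libraries with 24:5 were below the vehicle libraries. Means were 260 ± 30.6 and 204 ± 10.6 CPM (SD, n = 3 each), and the log2 fold change of -0.35 (SE 0.0943) had the smallest p of the 10 genes in this comparison (edgeR adjusted p = 0.405). It was negative in 12 of 12 alternative fits, from -0.41 to -0.26, and passed in none, with the smallest adjusted p at 0.0852. Ftl1 overlaps Gm10252 on the opposite strand over 355 exon bases. Gm10252 was at no more than 0.490 FPKM and 0.318 CPM, and the copy Ftl1-ps1 was at 1.02 to 2.56 FPKM and 0.338 to 1.13 CPM.

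Tfrc (ENSMUSG00000022797, chromosome 16, 32608920 to 32632794), the receptor that takes up transferrin-bound iron, was at 32.5, 34.0 and 43.0 FPKM in 12-month wildtype retinas. Mutants were at 33.7, 38.3 and 35.2 FPKM and 18-month wildtype retinas at 44.9, 43.9, 48.7 and 43.2 FPKM. Every 18-month library was above every 12-month library of either genotype, although 12-month wildtype replicate 3, at 43.0 FPKM, nearly reached the lowest of them. The 18-month mean was 45.2 ± 2.45 FPKM (SD, n = 4) and the 12-month wildtype mean 36.5 ± 5.64 FPKM (SD, n = 3), a log2 fold change of 0.31 (SE 0.0993, limma adjusted p = 0.9999). Groups that do not overlap in the higher direction made up 1.95% of all genes for age, and Tfrc was the 1 of the 9.

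Against mutants, at 35.7 ± 2.38 FPKM (SD, n = 3), 18-month wildtype retinas were higher in Tfrc by a log2 fold change of 0.33 (SE 0.0993, limma adjusted p = 0.99999). Here groups that do not overlap in the higher direction made up 2.1% of all genes, and Tfrc was the 1 of the 9. Mutant and wildtype at 12 months overlapped (log2 -0.02, SE 0.106). Across the Malat1 split the age values are given without a reading, because the set with low Malat1 held a single 12-month wildtype library. In libraries with high Malat1 Tfrc went from 32.5 and 34.0 to 43.9 and 48.7 FPKM, and in the others from 43.0 to 43.2 and 44.9 FPKM. With Malat1 as a covariate the log2 fold change for age was 0.30 (SE 0.0746, limma adjusted p = 0.316), and with library quality weights Tfrc passed (log2 0.44, limma adjusted p = 0.0178), as did 9.04% of all genes. In injected retinas Tfrc was at 204, 248 and 222 CPM with vehicle and 215, 254 and 287 CPM with 24:5, which overlapped (log2 0.17, SE 0.118, edgeR adjusted p = 0.956).

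Ratios within a library, taken per gene length, are free of library size. Fth1 over Ftl1 was 9.46 to 13.1 in the 10 uninjected libraries, with overlap of all 3 groups. In the 6 injected libraries it was 1.19 to 1.44, namely 1.19 to 1.34 with vehicle and 1.418 to 1.44 with 24:5, without overlap. Tfrc over Fth1 was 0.0530 to 0.0912 in uninjected and 0.124 to 0.221 in injected libraries. The tables were made separately, and the deposited Fth1 length of the first was applied to both. Injection and table cannot be told apart in these ratios, and no test was run on them.

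**Figure D4:**
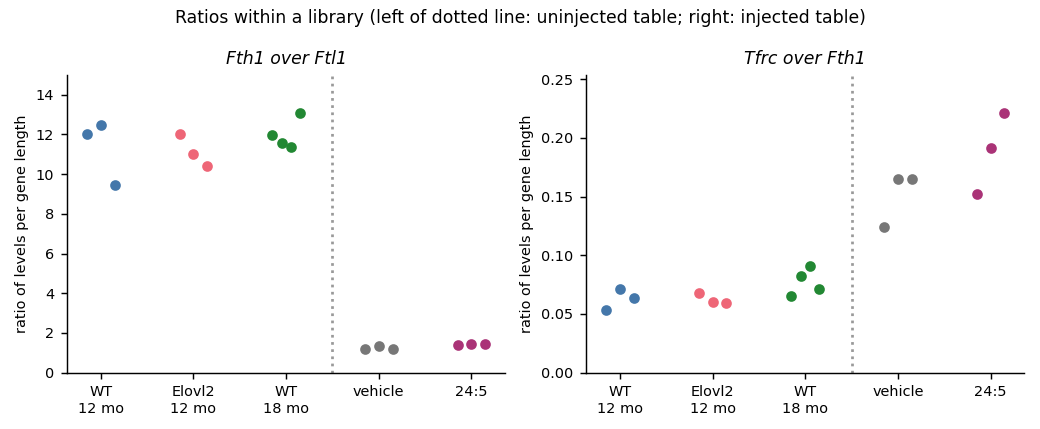
Ratio of Fth1 to Ftl1 (left) and of Tfrc to Fth1 (right), per gene length, with 1 point per library. The dotted line parts the uninjected table (Fth1 over Ftl1 9.46 to 13.1) from the injected table (1.19 to 1.44), which were made separately.

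Hmox1 (ENSMUSG00000005413, chromosome 8, 75093621 to 75100589) encodes haem oxygenase 1, an inducible enzyme that frees iron from haem. It was at 2.90, 2.15 and 2.02 FPKM in 12-month wildtype, 1.72, 3.42 and 2.61 FPKM in mutants, and 2.60, 2.04, 2.07 and 1.87 FPKM in 18-month wildtype retinas. The groups overlapped, and neither age (log2 -0.09, SE 0.163) nor genotype (log2 0.08, SE 0.174) passed. Without 12-month wildtype replicate 1, the library with the high gliosis markers, the log2 fold change for age was 0.02.

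After injection Hmox1 had the widest spread of the 10 genes. It was at 16.9, 15.8 and 22.3 CPM with vehicle and at 4.41, 26.1 and 44.0 CPM with 24:5. The 24:5 group held both the lowest and the highest library, which differed 9.98-fold. Means were 18.3 ± 3.48 and 24.9 ± 19.8 CPM (SD, n = 3 each), a log2 fold change of 0.44 (SE 0.780, edgeR adjusted p = 0.997). Without 24:5 replicate 1 the log2 fold change was 0.93 (SE 0.257, edgeR adjusted p = 0.321), and without 24:5 replicate 3 it was -0.26 (SE 0.772). With the lens level as a covariate it was -0.65 (SE 1.03), so its direction turned both with a single library left out and with this covariate.

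Marker lists of other cells moved with some of these values. The reactive gliosis markers, 10 of 10 detected in every library, summed to 491 CPM in 24:5 replicate 1, the library with the lowest Hmox1, and to 1255 to 2177 CPM in the other 5 injected libraries. Lcn2, a gliosis marker, was also lowest there, at 15.4 CPM. It was next lowest, at 39.7 CPM, in 24:5 replicate 3, the library with the highest Hmox1. Elsewhere it was at 126 to 229 CPM. The sum over all 10 gliosis markers was 1800 CPM in 24:5 replicate 3, so Lcn2 departed from its list there. Vehicle replicate 3 had the highest gliosis sum, 2177 CPM, with Hmox1 at 22.3 CPM, against 44.0 CPM in 24:5 replicate 3. Neither Lcn2 nor the gliosis sum followed Hmox1 across all libraries. The microglia and macrophage markers, 15 of 15 detected in every library, summed to 348 to 558 CPM with vehicle and to 170 to 275 CPM with 24:5, without overlap, beside the lower Slc7a11, Aifm2 and Ftl1. The rod markers, 10 of 10 detected in every library, summed to 39175 to 45860 CPM with vehicle and to 46130 to 49041 CPM with 24:5, also without overlap. The part of gliosis, microglia and rod markers in these results was not tested. With the lens level as a covariate the log2 fold change was -0.27 for Ftl1, -0.58 for Slc7a11 and -0.28 for Aifm2, and it turned in sign for Hmox1 (from 0.44 to -0.65) and Gclc (from 0.05 to -0.01).

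**Figure D5:**
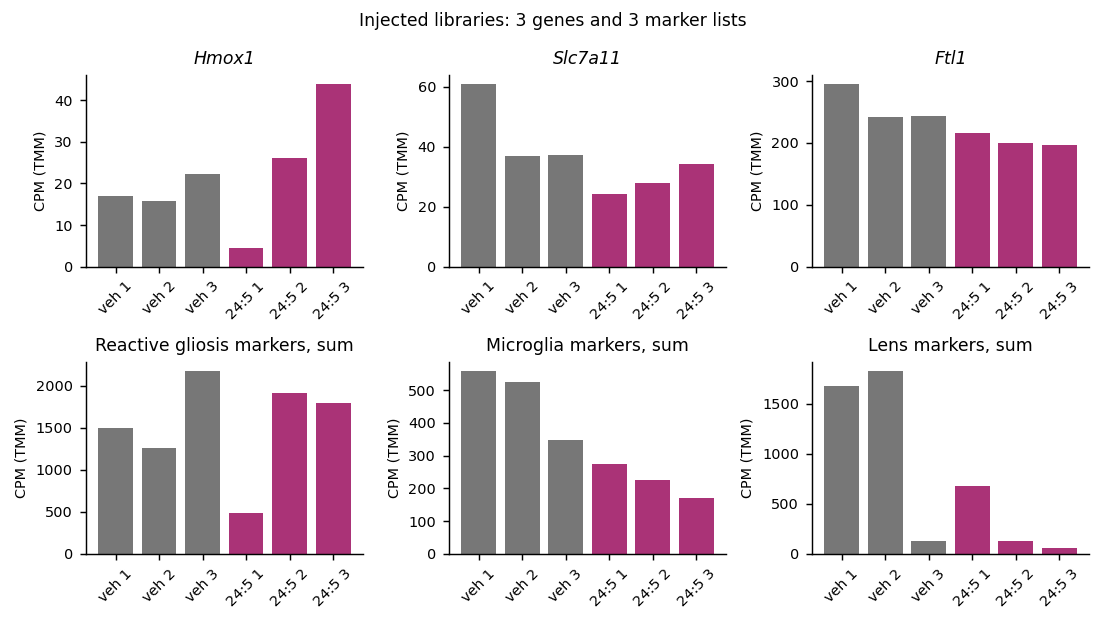
CPM of Hmox1, Slc7a11 and Ftl1 (top) and summed CPM of reactive gliosis, microglia and lens markers (bottom) in each injected library, as bars from 0 (vehicle grey, 24:5 purple). The 24:5 replicate 1 bar is lowest for both Hmox1 (4.41 CPM) and the gliosis sum (491 CPM), and the microglia sum is at most 275 CPM in all 3 libraries with 24:5.

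The wider pathway held 151 listed genes in 6 lists, of which 127 were tested in uninjected and 142 in injected retinas. By limma or edgeR 0 passed in any comparison. By unadjusted p under 0.05, 1 was higher and 1 lower for age, 1 higher and 1 lower for genotype, and 2 higher and 0 lower between 18-month wildtype and mutants. After 24:5 the same count was 3 higher and 10 lower, against 1.44% and 5.16% of all genes. Groups did not overlap after 24:5 for 4 higher and 11 lower of the 142, against 841 and 1183 of all 17466 genes. For age this held for 3 higher and 0 lower of the 127, against 269 and 306 of 13786 genes. For genotype it held for 5 higher and 2 lower, against 420 and 403. The genes named below were picked by small p, so their separation is to be read beside these counts. The median log2 fold change of the 127 was 0.01 for age, against 0.00 over all genes, and 74 (58.3%) lay higher and 53 lower at 18 months, against 49.4% of all genes higher. After 24:5, 63 (44.4%) lay higher and 79 lower, against 50.8% of all genes higher, with a median of -0.04 against 0.00. The list counts below are read against these backgrounds and carry no test.

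In the 30 lipid peroxide and thiol peroxidase genes, 9 lay higher and 21 lower after 24:5, with a median of -0.04, and 7 of 30 were lower with an unadjusted p under 0.05. Prdx6, a peroxiredoxin that reduces phospholipid hydroperoxides, was at 183, 181 and 160 CPM with vehicle and 148, 132 and 111 CPM with 24:5. These groups did not overlap (log2 -0.42, SE 0.114, edgeR adjusted p = 0.409). Mgst1, a membrane-bound glutathione transferase, was at 24.5, 14.6 and 10.03 CPM with vehicle and at 8.67, 6.39 and 6.06 CPM with 24:5. These groups did not overlap either (log2 -1.21, SE 0.336, edgeR adjusted p = 0.459). Gpx3, the secreted glutathione peroxidase, named after its values were seen, was at 75.1, 33.3 and 3.51 CPM with vehicle and at 4.77, 2.75 and 2.66 CPM with 24:5. Vehicle replicates 1 and 2 stood far above the other 4 libraries, and the groups overlapped (log2 -3.45, SE 1.14, edgeR adjusted p = 0.646). The same replicates had the highest summed lens markers, 1679 and 1830 CPM, against 57.1 to 675 CPM in the other 4. The part of lens RNA in the Gpx3 values was not tested. Prdx1, a cytosolic peroxiredoxin, was also lower without overlap (126 ± 10.5 and 106 ± 6.19 CPM, SD, n = 3 each). For age the same 30 genes lay higher in 19 cases and lower in 11, and for genotype in 16 and 14.

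In the 20 glutathione synthesis and reduction genes, 11 lay higher and 9 lower after 24:5. Cbs, which opens the transsulfuration route to cysteine, was at 1.93 ± 0.218 CPM in vehicle retinas and 1.11 ± 0.0768 CPM in 24:5 retinas (SD, n = 3 each). Chac1, which degrades glutathione, was at 2.67 ± 0.0828 and 3.69 ± 0.376 CPM (SD, n = 3 each). Cbs was the 1 lower and Chac1 the 1 higher of the 20 genes whose groups did not overlap. Neither gene passed (edgeR adjusted p = 0.459 and 0.706). Gls2, a glutaminase, lay higher than all 12-month wildtype libraries in both 18-month wildtype (5.11 ± 0.373 FPKM, SD, n = 4) and mutant retinas (5.27 ± 0.377 FPKM, SD, n = 3). The 12-month wildtype mean, shared by both comparisons, was 4.16 ± 0.477 FPKM (SD, n = 3), and the limma adjusted p was 0.9999 for age and 0.9998 for genotype.

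In the 24 tested NRF2 pathway and ferroptosis regulators, 11 lay higher and 13 lower after 24:5. Nfe2l2, which encodes NRF2, was at 31.2, 30.8 and 33.6 CPM with vehicle and at 22.8, 26.9 and 27.1 CPM with 24:5. The groups did not overlap (log2 -0.32, SE 0.0952, edgeR adjusted p = 0.459). Txnip, an inhibitor of thioredoxin, was at 3.52 ± 0.818 FPKM in 12-month (SD, n = 3) and 2.37 ± 0.419 FPKM in 18-month wildtype retinas (SD, n = 4), and it did not pass (limma adjusted p = 0.9999).

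In the 33 tested genes of iron uptake, export and sensing, 12 lay higher and 21 lower after 24:5, with a median of -0.06. Trf, which encodes transferrin, was at 49.6 ± 13.3 CPM in vehicle retinas and 37.1 ± 4.75 CPM in 24:5 retinas (SD, n = 3 each), with overlap (edgeR adjusted p = 0.824). In the 18 tested genes of polyunsaturated phospholipid supply, 12 lay higher and 6 lower after 24:5. Agps, an enzyme of plasmalogen synthesis, was at 61.5 ± 2.53 CPM in vehicle retinas and 69.4 ± 4.15 CPM in 24:5 retinas (SD, n = 3 each), and Acsl5, a relative of Acsl4, at 20.8 ± 0.771 and 17.9 ± 1.13 CPM. Neither passed (edgeR adjusted p = 0.732 and 0.750). In the 17 tested quinone and pterin genes 8 lay higher and 9 lower, and 0 had an unadjusted p under 0.05 in edgeR.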

How the data were processed

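Libraries of whole retinas, poly(A)-selected and strand-marking per the labels' protocols, were analysed from 2 tables. The injected table held the high share of RNAs without a poly(A) tail given above. Whether it comes from how the libraries were made or from the counting was not tested. Uninjected values are FPKM per gene as deposited, per the file headers. Injected values are raw counts per gene as deposited by the authors. The mm10 build and the tools HISAT2 2.2.1, featureCounts 2.0.6 and DESeq2 1.42.0 are named, with no role or order, per the submitters' processing notes. For the annotation release and strand setting, nothing is stated in the sources used here. FPKM times gene length gave whole reads (within 0.02) for 100.0% of values above 0, to 1 decimal.

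In R 4.3.3, log2(FPKM + 1) of 13786 genes with a mean of at least 1 FPKM was tested with limma 3.58.1 (trend, robust), with 10 libraries in 1 fit. Fold changes on this scale understate low genes. Counts of 17466 genes that passed filterByExpr went into edgeR 4.0.16 (TMM, robust quasi-likelihood test). All tests are two-sided, and p-values were adjusted by Benjamini-Hochberg over all genes with a threshold of 0.05. Alternatives were DESeq2, edgeR on recovered reads, other scaling, filters and pseudocount, quality weights, Malat1 or lens covariates, the replicate number as a block, single libraries left out, and Gpx4 summed with its pseudogene, the last chosen after its values were seen. No pair of replicates agreed within sampling noise (chi-square per degree of freedom 3.25 to 47.6).

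Levels were tested only within a table. The 10 genes and all lists were chosen with earlier results of these data known. Of the wider lists, the genes with the smallest p in each list and comparison could be named, up to 3 for 24:5 and 1 otherwise. Of these, 1 gene is not reported here, and Gpx3 was added after its values were seen. Hjv and Peds1 were not matched.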

Additional observations from a re-analysis of the deposited data

Results flagged for a closer look

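Of the 10 genes in the 1 group of 4 libraries, 1 had a library far from the other 3. Ftl1 was at 57.4 FPKM in 18-month wildtype replicate 1 and at 46.1 to 46.9 FPKM in the other 3, so the gap took up 0.929 of the group's whole range. Chance flags about 1 in 20 such groups. The 12-month wildtype libraries, at 38.4 to 71.2 FPKM, span this value.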

How the results depend on the processing

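The 10 genes gave 543 values under alternatives, of which 3 passed, all with library quality weights. These were Acsl4 and Tfrc for age (2 genes) and Acsl4 for genotype (1 gene). The sign turned in 56 values, and in 0 of them did both values exceed 1 SE. In 14 of 37 tested pairs of gene and comparison no sign turned. Leaving out single libraries called 0 to 0 of the 10 genes in all 4 comparisons.

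Counts over all genes moved more. For age, 0 genes became 4 without the filter on low values, 1 with edgeR and 13 with DESeq2 on recovered reads, 1246 with quality weights and 1 with Malat1 as a covariate. For genotype, 0 became 4 without the filter and 2598 with quality weights. Between 18-month wildtype and mutants, 0 became 1 without the filter, 11 with DESeq2, 2 with only the groups compared, 5 with quality weights and 1 with Malat1 as a covariate. After 24:5, 2 genes became 246 with DESeq2, 85 without a filter, 11 with quality weights and 175 with the lens covariate. Leaving out 1 injected library gave 0 to 105, with 105 without vehicle replicate 3, 1 without 24:5 replicate 1 and 0 without each of the others. The cause was not tested.

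With the replicate number as a block, 88 genes passed after 24:5 and 0 of the 10 genes, and the count stayed at 0 in the other 3 comparisons. Same-numbered libraries deviated together with correlations from -0.29 to 0.53 after 24:5, from -0.42 to 0.51 for genotype, from -0.39 to 0.42 for age and from -0.47 to -0.21 between 18-month wildtype and mutants, and not every library correlated best with its own number. No comparison had all pairs over 0.1, so no pairing was used, and whether same-numbered eyes share an animal is unknown. Depth limits Nqo1, Hmox1 and Slc7a11 most in uninjected retinas, at 30 to 412 reads per library.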
